A study of Homo sapiens with 11 samples.

Results

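The 10 genes described here encode interleukin-6 (IL6), a set of chemokines and related cytokines, and 2 feedback inhibitors of NF-kB: IL6, IL8 (now CXCL8), CXCL1, CXCL2, CCL2, LIF, IL1A, IL1B, NFKBIA and TNFAIP3. They were chosen by name from a fixed list, all 10 were found among the 31325 gene symbols of the arrays, and the rule itself used no measured value, although earlier results of these data were known when the list was made. IL8 is kept under the symbol the arrays use.

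NF-kB is a family of dimeric transcription factors held in the cytoplasm by inhibitor proteins of the IkB family. Signals from IL1 or TNF receptors activate the IKK kinase complex, the inhibitor is degraded, and the freed dimers switch on cytokine and chemokine genes together with genes for their own inhibitors. In carcinoma cells IL6 and the chemokines are secreted products that act on the cancer cell itself and on surrounding stroma, vessels and leukocytes, and IL6 has been described as a target of miR-365.

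The arrays measured mRNA in 2 established human cancer cell lines, MDA-MB-231 from a basal-like breast carcinoma and SKOV3 from an ovarian carcinoma (the study's text names the subline SKOV3.ip1), after transfection with miR-365a-3p or a control miRNA. MDA-MB-231 cells had 3 arrays with miR-365a-3p and 3 with control miRNA, and SKOV3 cells had 3 with miR-365a-3p and 2 with control miRNA, 11 in all. The sample labels give 48 h of treatment where the series text gives 24 h, and neither states the dose or the sequence of the control miRNA. Nothing states that replicates were separate cultures, so p-values measure the spread between these arrays, which may be technical.

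The transfected miRNA is shown first because every treatment comparison rests on it. The mature sequence below is from RefSeq (GRCh38.p14, chr16:14309340-14309361, plus strand), 22 bases long, with the seed, bases 2 to 8, in capitals.
hsa-miR-365a-3p: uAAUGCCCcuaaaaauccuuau
The mature sequence of hsa-miR-365b-3p, from chr17:31575478-31575499, is identical, and these 2 were the only entries with this seed among 2545 mature miRNAs of the table. Target sites in the mRNAs of the 10 genes were not analysed here.

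Promoter sequence is shown because the members are grouped by their control through NF-kB. RefSeq promoters, 250 bases before to 50 after each start on GRCh38.p14, were found for 8 of the 10 genes; CCL2 and LIF are named only. The NF-kB consensus, searched by name on both strands, had a match in 5 of them, and 11.3% of 35116 promoters had one. For each, 1 match with 10 bases on either side follows on the strand of the gene, with the match in capitals.
IL6 (chr7:22727117-22727146, plus strand): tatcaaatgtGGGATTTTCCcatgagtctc
CXCL1 (chr4:73869304-73869333, plus strand): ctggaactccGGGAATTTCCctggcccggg
CXCL2 (chr4:74099254-74099283, minus strand): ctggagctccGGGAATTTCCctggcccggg
NFKBIA (chr14:35404811-35404840, minus strand): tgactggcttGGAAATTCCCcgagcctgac
TNFAIP3 (chr6:137867182-137867211, plus strand): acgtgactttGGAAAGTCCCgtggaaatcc
The 30 bases of CXCL1 and CXCL2 were identical at 29 positions, and each also held an overlapping match on the opposite strand. TNFAIP3 had a second match closer to its start. The IL6 match began 73 bases before the start of the gene. The IL8 promoter had no match to these letters but held an AP-1 site (TGANTCA, searched on both strands, found in 7.71% of promoters) 137 bases before its start.
IL8 (chr4:73740422-73740448, plus strand): ggaagtgtgaTGACTCAggtttgccct
IL1A also held AP-1 matches. A match describes the letters of the window and nothing about binding.

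Values are read as log2 signals, after quantile normalization across the 11 arrays; the sources used here do not state the transformation, and every fold given depends on that reading. A background level was set in each group at the 95th percentile of 387 olfactory receptor genes, which these cells are not known to use, and lay between 7.39 and 7.44. By that measure 9 of the 10 genes had a mean above background in control MDA-MB-231 cells and 8 with miR-365a-3p, against 7 and 6 in SKOV3 cells. Several members sat close to background, where array signal is compressed and a log2 difference understates a change in mRNA. VIM, a mesenchymal marker, was high in all 4 groups (means of 13.14 to 13.79). SPARC, a marker chosen for MDA-MB-231, was below background there and 8.52 in control SKOV3 cells. Control SKOV3 exceeded control MDA-MB-231 cells in ERBB2 (10.86 against 7.61), KRT8 (10.20 against 9.20) and KRT19 (11.92 against 10.70). KRT18, also chosen for SKOV3, was not called (7.90 against 8.01). ESR1, PGR and CDH1, chosen as low in MDA-MB-231, were below background there. With miR-365a-3p CD44 changed by -2.52 in MDA-MB-231 and -1.43 in SKOV3 cells, MSN by -1.62 and -1.12, and ERBB2 by -1.57 in SKOV3. KRT8 rose by 0.86 in MDA-MB-231 cells. None of 4 leukocyte markers was above background in any group. Of 4 monocyte and macrophage markers 3 were above it in both MDA-MB-231 groups, with summary means per array of 8.16 to 8.36. In SKOV3 groups 1 or 2 were, with 7.83 to 7.96. CSF1R (0.34, adjusted p = 0.00123 by limma) and LYZ (0.22, adjusted p = 0.0276) rose with miR-365a-3p in MDA-MB-231 cells, where IL8 and CCL2 also rose. These rises depended on the scaling, as on the values as deposited the difference was -0.038 for CSF1R and 0.033 for LYZ. CD68 (-0.12, adjusted p = 0.696 by limma) and CD163 (0.0053, adjusted p = 0.927) did not pass. The part of these markers in the results was not tested.

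**Figure D1:**
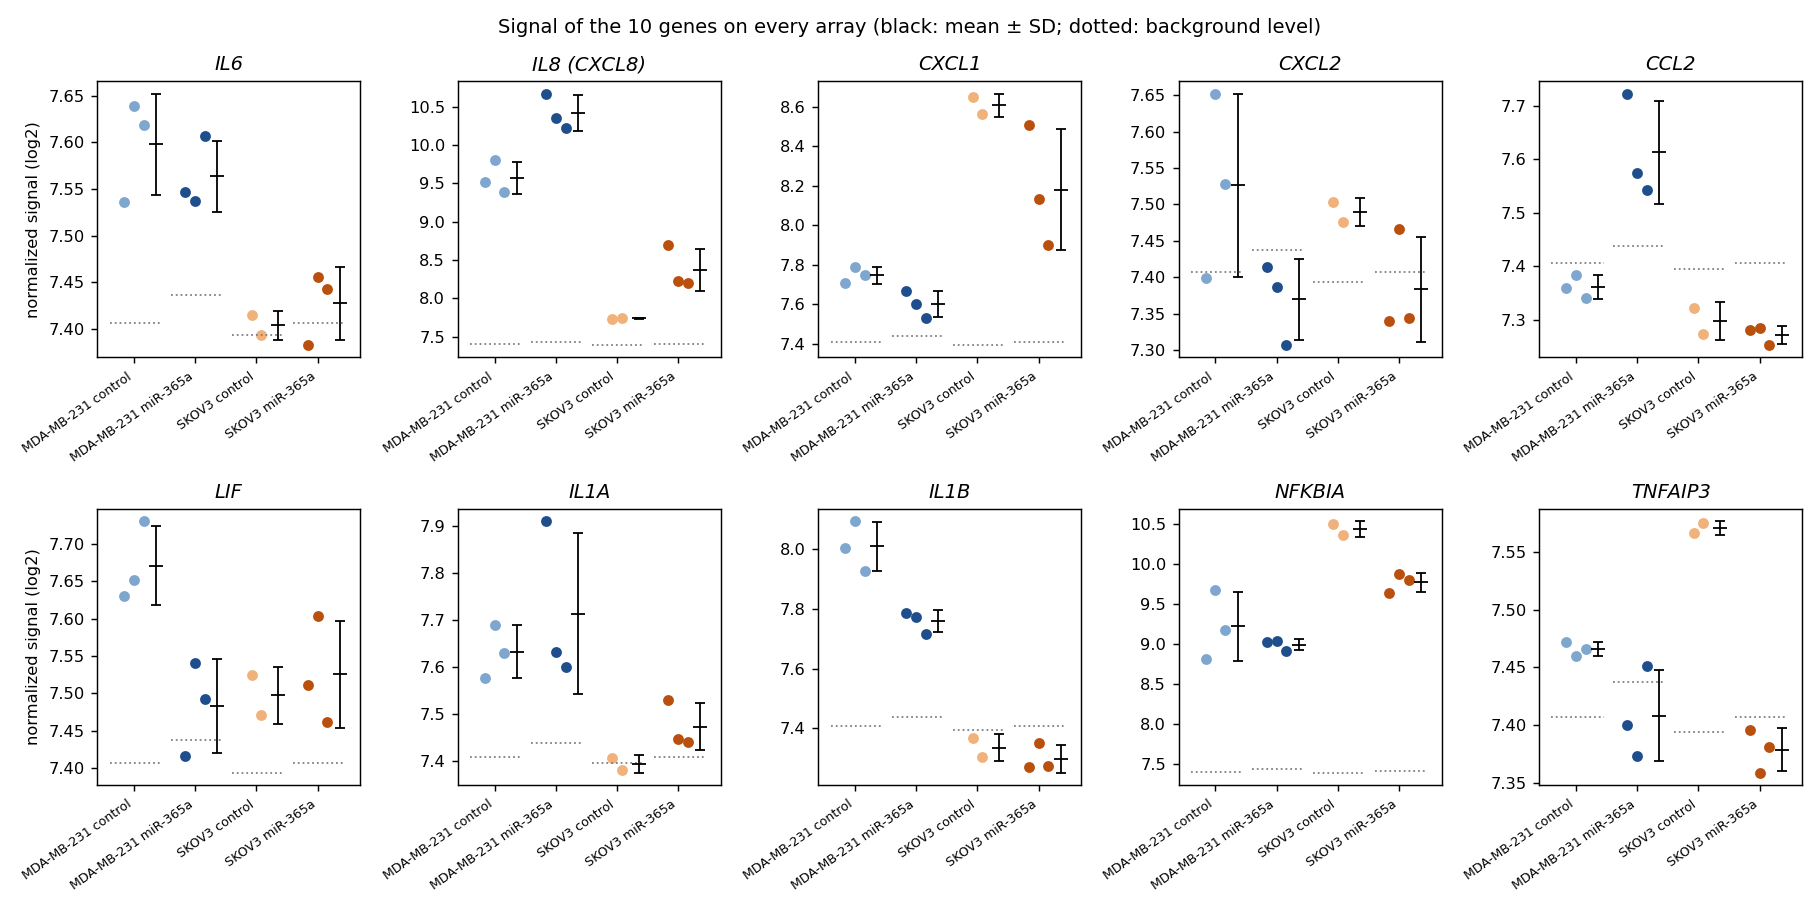
Normalized log2 signal (y axis, own scale in each panel) of the 10 genes on every array, by cell line and treatment (x axis). Points are arrays, black marks the group mean ± SD, and the dotted line is the background level of the group. IL8 was higher on all miR-365a-3p arrays than on all controls in both cell lines, and IL6 arrays of the 2 treatments overlapped in both.

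In MDA-MB-231 cells miR-365a-3p was accompanied by a rise of 2 members, IL8 and CCL2, and a fall of 2, IL1B and LIF, by limma's moderated test with Benjamini-Hochberg adjustment over all genes at 0.05. Among all genes tested 14.4% rose and 11.7% fell, 26.1% in all; 4 of 10 members were called. Among the 14216 genes above background in at least 1 group of this comparison, which include all 10 members, the shares were 30.9% and 25.1%. In SKOV3 cells 1 member fell, TNFAIP3, where 7.11% of all genes fell, and 0 rose, where 7.25% of all genes rose (14.4% in either direction). Among the 14968 genes above background in at least 1 SKOV3 group, which include 8 members, 14.8% fell and 15.1% rose. At an unadjusted p under 0.05 in limma 3 members were lower and 1 was higher. The share of all genes at that unadjusted p is not given here. The median log2 change of the members was -0.10 in MDA-MB-231 and -0.031 in SKOV3 cells, against 0.0064 and 0.0066 over all genes.

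**Figure D2:**
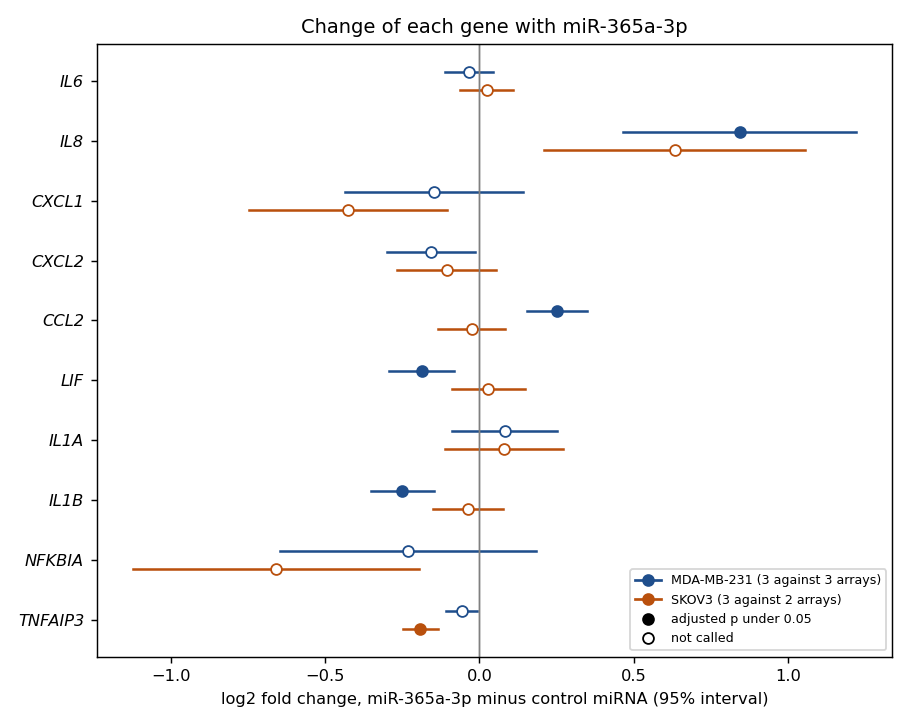
Log2 fold change of each gene with miR-365a-3p (x axis, miR-365a-3p minus control miRNA) with its 95% interval from limma, in MDA-MB-231 (blue) and SKOV3 (orange) cells; filled points passed the adjusted threshold. IL8 lay farthest to the right in both cell lines, and NFKBIA in SKOV3 farthest to the left.

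Comparing array by array, 2 members were higher on every miR-365a-3p array than on every control in MDA-MB-231 cells (IL8 and CCL2) and 4 were lower on every one (CXCL1, LIF, IL1B and TNFAIP3). Over all genes 21% were separated upward and 17% downward in this way. In SKOV3 cells 2 members were separated upward (IL8 and IL1A) and 4 downward (CXCL1, CXCL2, NFKBIA and TNFAIP3), where 23.7% and 18.2% of all genes were. IL8 was the member separated upward in both cell lines, and CXCL1 and TNFAIP3 those separated downward in both. The share of all genes separated alike in both lines is not given here, so this does not set these members apart.

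IL6, the cytokine that signals through gp130 and STAT3, did not pass the test in either cell line. Its log2 signal on the miR-365a-3p arrays of MDA-MB-231 cells was 7.55, 7.54 and 7.61, against 7.54, 7.64 and 7.62 on the control arrays. The groups overlapped, and the highest and the lowest of the 6 values were both from controls. In SKOV3 cells the miR-365a-3p arrays read 7.38, 7.46 and 7.44 and the controls 7.42 and 7.39, again overlapping and close to the background of 7.41 and 7.39. The log2 change was -0.034 (SE 0.034, 95% interval -0.11 to 0.043, adjusted p = 0.587 by limma) in MDA-MB-231 and 0.023 (SE 0.038, -0.063 to 0.11, adjusted p = 0.84 by limma) in SKOV3 cells. The mean of the control arrays was 0.19 above background in MDA-MB-231 and 0.010 above it in SKOV3 cells, so a fall of IL6 had little room to show in the first line and almost none in the second. The result depends on the scaling of the arrays: on the values as deposited, the MDA-MB-231 difference was -0.20 (adjusted p = 0.0111 by limma), and after median centring of the arrays it was -0.17 (adjusted p = 0.0196), while in SKOV3 cells the sign turned to -0.038 and to -3.11e-06 without passing the test.

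LIF, a cytokine of the same gp130-using family as IL6, fell in MDA-MB-231 cells. Its log2 signal was 7.42, 7.54 and 7.49 with miR-365a-3p and 7.63, 7.65 and 7.73 with control miRNA, so the lowest control lay above the highest treated array. The change was -0.19 (SE 0.047, adjusted p = 0.0162 by limma), a 1.14-fold fall. The call was lost without miR-365a-3p replicate 1 (-0.15, adjusted p = 0.0588 by limma) and without control replicate 3 (-0.16, adjusted p = 0.063 by limma). In SKOV3 cells LIF was 7.51, 7.60 and 7.46 against 7.52 and 7.47, groups that overlapped, with a change of 0.028 (adjusted p = 0.868 by limma); the sign was negative on deposited values and with median centring.

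IL8, the CXCR1 and CXCR2 ligand that attracts neutrophils, showed the largest log2 rise of the 10 genes in both cell lines. In MDA-MB-231 cells it read 10.67, 10.35 and 10.22 with miR-365a-3p and 9.52, 9.80 and 9.39 with control miRNA. The lowest treated array stood 0.41 above the highest control. This was a 1.80-fold rise (log2 change 0.84, SE 0.17, adjusted p = 0.00528 by limma), and it passed in all 23 alternatives computed, with changes of 0.72 to 0.96. In SKOV3 cells IL8 read 8.69, 8.23 and 8.20 against 7.74 and 7.74, again without overlap. The 1.55-fold difference (log2 0.63, SE 0.19, adjusted p = 0.0549 by limma) missed the threshold, which it passed in 7 of 23 alternatives; over all alternatives the adjusted p lay between 0.016 and 0.237.

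Replicate 1 with miR-365a-3p carried the highest IL8 value in both cell lines. Without it in both, a setting chosen after seeing the data, IL8 was 0.72 higher in MDA-MB-231 cells (adjusted p = 0.00369 by limma). In SKOV3 cells IL8 was then 0.47 higher (adjusted p = 0.0489 by limma). The planned setting that left out replicate 1 with miR-365a-3p in SKOV3 cells alone also gave 0.47 there, which did not pass. Permuting the treatment within both cell lines over all 200 arrangements gave IL8 an exact two-sided p of 0.005, the smallest this design allows, with a mean difference of 0.74 (adjusted p over all genes = 0.0328). With replicate numbers as a block shared by both cell lines, a setting chosen after seeing the data, the SKOV3 difference was 0.73 and passed (adjusted p = 0.0222 by limma). IL8 was higher on 6 of 6 treated arrays than on any control of its own line.

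CXCL1 and CXCL2, CXCR2 ligands with similar sequences, did not pass the test in either cell line under quantile normalization. CXCL1 in MDA-MB-231 cells read 7.67, 7.60 and 7.53 with miR-365a-3p and 7.70, 7.79 and 7.75 with control miRNA, a difference of -0.15 (SE 0.13, adjusted p = 0.515 by limma). In SKOV3 cells it read 8.51, 8.13 and 7.90 against 8.65 and 8.57, a difference of -0.43 (SE 0.14, adjusted p = 0.0847 by limma). Treated arrays were thus below every control in both cell lines, and the 3 treated SKOV3 arrays spread over 0.60. Without SKOV3 miR-365a-3p replicate 1, the treated array nearest the controls, the difference was -0.59 (adjusted p = 0.00233 by limma). On deposited values CXCL1 was called lower in both cell lines, by -0.37 in MDA-MB-231 (adjusted p = 0.0296 by limma) and by -0.73 in SKOV3 cells (adjusted p = 0.00263).

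CXCL2 lay closer to background. It read 7.41, 7.39 and 7.31 against 7.40, 7.65 and 7.53 in MDA-MB-231 cells and 7.34, 7.47 and 7.34 against 7.50 and 7.48 in SKOV3 cells. The groups overlapped in MDA-MB-231 cells through control replicate 1 and did not overlap in SKOV3 cells. The differences were -0.16 (SE 0.063, adjusted p = 0.114 by limma) and -0.11 (SE 0.070, adjusted p = 0.462 by limma). Without that MDA-MB-231 control array the difference was -0.22 (adjusted p = 0.0224 by limma). Which probes stand behind each symbol is not given in the sources used here, so the values of CXCL1 and CXCL2 are uncertain as to which of these related genes they measure, and shared hybridization was not tested.

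CCL2, the CCR2 ligand that attracts monocytes, rose in MDA-MB-231 cells from below the background level to above it. It read 7.72, 7.57 and 7.54 with miR-365a-3p, where background was 7.44, and 7.36, 7.38 and 7.34 with control miRNA, where background was 7.41. All treated arrays were above all controls. The rise was 0.25 on the log2 scale (SE 0.043, adjusted p = 0.00261 by limma), or 1.19-fold. It passed in 22 of 23 alternatives, the exception being a required log2 change of at least 0.5. On the values as deposited the rise was 0.11, so its size depended on the scaling. In SKOV3 cells CCL2 was at 7.28, 7.28 and 7.25 against 7.32 and 7.27, below background in both groups. With both SKOV3 groups below background, no change could be measured there. The difference between the changes in the 2 cell lines, 0.28 (SE 0.065, adjusted p = 0.0709 by limma), therefore reflects the MDA-MB-231 rise, and it passed in 6 of 22 alternatives with an adjusted p between 0.0157 and 0.292 over all of them.

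IL1B and IL1A encode the 2 agonists of the IL1 receptor, which feed the NF-kB pathway from outside the cell. IL1B in MDA-MB-231 cells read 7.79, 7.77 and 7.72 with miR-365a-3p and 8.01, 8.09 and 7.93 with control miRNA, without overlap. It fell by 0.25 on the log2 scale (SE 0.045, adjusted p = 0.0032 by limma), or 1.19-fold, and by 0.56 on the values as deposited. In SKOV3 cells IL1B was below background in both groups, at 7.27 to 7.35 with miR-365a-3p and 7.30 and 7.37 with control miRNA. IL1A read 7.91, 7.63 and 7.60 against 7.58, 7.69 and 7.63 in MDA-MB-231 cells, overlapping except for the high replicate 1 with miR-365a-3p. Its difference of 0.082 (adjusted p = 0.551 by limma) was -0.017 without that array and -0.16 on deposited values. In SKOV3 cells IL1A read 7.53, 7.45 and 7.44 against 7.41 and 7.38, separated but with a difference of 0.079 (adjusted p = 0.715 by limma).

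NFKBIA encodes IkB alpha, the inhibitor that NF-kB itself induces and that returns the dimers to the cytoplasm. In SKOV3 cells it read 9.64, 9.88 and 9.81 with miR-365a-3p and 10.51 and 10.36 with control miRNA, a gap of 0.49 between the groups. The 1.58-fold lower mean (log2 -0.66, SE 0.20, adjusted p = 0.0669 by limma) missed the threshold and passed it in 7 of 23 alternatives, with an adjusted p between 0.00815 and 0.311 over all of them. In MDA-MB-231 cells NFKBIA read 9.02, 9.03 and 8.91 against 8.81, 9.68 and 9.18. The 3 controls spread over 0.87 and enclosed the treated arrays, and the difference was -0.23 (SE 0.18, adjusted p = 0.465 by limma). Leaving out MDA-MB-231 control replicate 1 or 2, the ends of that spread, gave the SKOV3 difference an adjusted p of 0.0176 or 0.00815 by limma through the shared estimate of variance.

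TNFAIP3 encodes A20, a ubiquitin-editing enzyme that shuts off signalling to IKK and is likewise induced by NF-kB. It fell in SKOV3 cells, from 7.57 and 7.57 with control miRNA to 7.40, 7.36 and 7.38 with miR-365a-3p. The controls were above background and all treated arrays below it. The fall was 0.19 on the log2 scale (SE 0.025, adjusted p = 0.00142 by limma), or 1.14-fold, and passed in 22 of 23 alternatives, the exception being the required change of 0.5. In MDA-MB-231 cells TNFAIP3 read 7.40, 7.37 and 7.45 against 7.47, 7.46 and 7.47, a difference of -0.058 (adjusted p = 0.103 by limma) that was called on deposited values (-0.12, adjusted p = 0.00213). Over both cell lines the mean difference was -0.12, and the exact permutation test gave TNFAIP3 a two-sided p of 0.005 (adjusted p over all genes = 0.0328).

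Permutation p-values of the other 8 members, from the same 200 arrangements, ran from 0.025 for IL1B (adjusted p = 0.0858) to 0.855 for IL6 (adjusted p = 0.933). With adjustment over all genes IL8 and TNFAIP3 were the members under 0.05, both at the smallest p the design allows. An adjusted permutation p of 0.0328 at that floor means that many other genes reached it too. Their share of all genes is not given here, so these calls do not set the members apart.

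The scaling of the arrays moves with the treatment and bears on these readings. The 75th percentile of the deposited values was 7.56 to 7.65 on miR-365a-3p arrays and 7.86 to 7.93 on controls in MDA-MB-231 cells, and 7.67 to 7.80 against 7.98 to 8.04 in SKOV3 cells. Quantile normalization removes this shift. With it, 44.8% of called genes fell in MDA-MB-231 and 49.5% in SKOV3 cells. On deposited values the shares were 71.2% and 78.6%, with median centring 59.1% and 67.7%, and with cyclic loess within each cell line 48.9% and 58.6%. Among the members, IL8 and CCL2 rose and LIF and IL1B fell in MDA-MB-231 cells, and TNFAIP3 fell in SKOV3 cells, under all 4 scalings. Which scaling stands closer to the RNA in the cells was not tested.

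**Figure D3:**
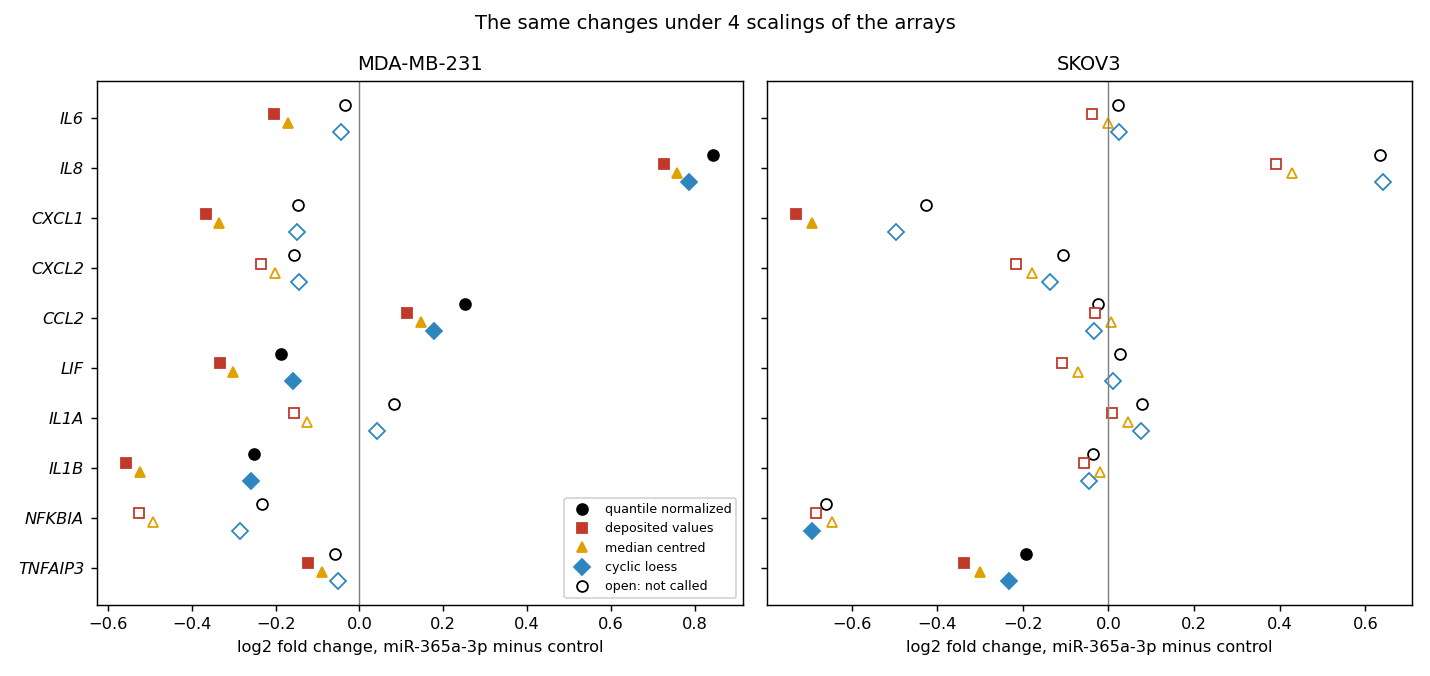
Log2 fold change with miR-365a-3p (x axis) of the 10 genes (y axis) in MDA-MB-231 and SKOV3 cells under 4 scalings, one symbol and colour each, filled where the adjusted p was under 0.05. IL6 in MDA-MB-231 cells moved from -0.034 to -0.20 between quantile normalization and the deposited values, and IL8 stayed above 0 in every case.

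The change with miR-365a-3p was then compared between the cell lines by the contrast of both differences. By limma 0 members passed, where 1.24% of all genes were called higher and 1.3% lower (2.54% in all). At an unadjusted p under 0.05 there were 4, CCL2 and TNFAIP3 higher and LIF and IL1B lower in MDA-MB-231 cells. The share of all genes at that unadjusted p is not given here. The difference for TNFAIP3 was 0.13 (SE 0.034, adjusted p = 0.0938 by limma) with quantile normalization, and it passed under the other 3 scalings, at 0.22 on deposited values (adjusted p = 0.00657), 0.21 with median centring (0.00438) and 0.18 with cyclic loess (0.00996), as well as with array weights (0.12, 0.0459). Both treated TNFAIP3 means lay below background, with controls 0.059 above it in MDA-MB-231 and 0.18 above it in SKOV3 cells. Each fall was thus bounded by the floor, and this contrast cannot be told apart from the difference between controls. For IL8 the difference between the changes was 0.21, with a 95% interval of -0.36 to 0.78, and for IL6 -0.057, with an interval of -0.17 to 0.058. The LIF difference, -0.22 (unadjusted p = 0.0136, adjusted p = 0.202 by limma), did not pass here or in any of 22 alternatives, so its fall in MDA-MB-231 cells was not shown to differ from SKOV3 cells. IL1B passed on deposited values (-0.50, adjusted p = 0.0114 by limma), but with both SKOV3 groups below background that contrast restates the MDA-MB-231 fall.

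The levels of the members in control cells were then compared between the 2 lines. By limma 3 of 10 were higher in MDA-MB-231 than in SKOV3 controls (IL8, IL1B and IL6), where 7.76% of all genes were, and 3 were lower (NFKBIA, CXCL1 and TNFAIP3), where 8.34% were (16.1% in all). These arrays are the same controls used above, so the comparisons share them.

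**Figure D4:**
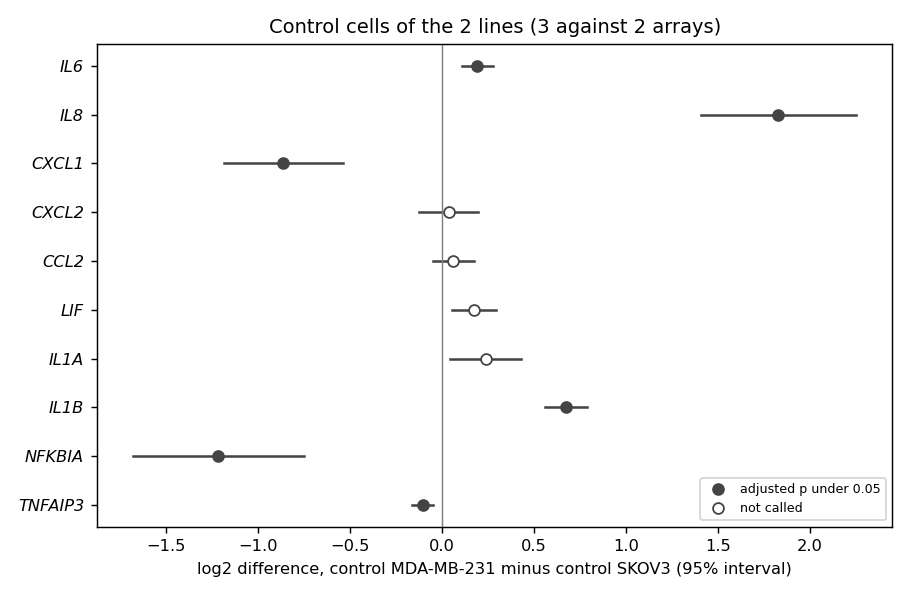
Log2 difference between control MDA-MB-231 and control SKOV3 cells (x axis, with 95% interval from limma) for the 10 genes (y axis); filled points passed the adjusted threshold. IL8 and IL1B stood to the right, higher in MDA-MB-231 cells, and NFKBIA and CXCL1 to the left.

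IL8 was 3.55-fold higher in control MDA-MB-231 cells (log2 1.83, SE 0.19, adjusted p = 0.000197 by limma), and every SKOV3 array, treated or not, was below every MDA-MB-231 array. The order of its 4 groups was miR-365a-3p MDA-MB-231 (mean 10.41 ± 0.23 SD, n = 3), control MDA-MB-231 (9.57 ± 0.21 SD, n = 3), miR-365a-3p SKOV3 (8.37 ± 0.28 SD, n = 3) and control SKOV3 (7.74 ± 0.0059 SD, n = 2). Neighbours in that order had no overlapping arrays. IL1B was 1.60-fold higher (log2 0.67, SE 0.050, adjusted p = 3.33e-05 by limma) and was above background in MDA-MB-231 cells alone. IL6 was 0.19 higher (SE 0.038, adjusted p = 0.00743 by limma). Its groups ran from 7.60 ± 0.054 (SD, n = 3) in control and 7.56 ± 0.038 (SD, n = 3) in treated MDA-MB-231 cells to 7.43 ± 0.039 (SD, n = 3) in treated and 7.40 ± 0.016 (SD, n = 2) in control SKOV3 cells. The 2 groups of each cell line overlapped, and the cell lines did not. Without SKOV3 control replicate 2 the IL6 call was lost (0.18, adjusted p = 0.0702 by limma).

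In the other direction, NFKBIA was 2.32-fold lower in control MDA-MB-231 cells (log2 -1.21, SE 0.20, adjusted p = 0.0034 by limma) and CXCL1 1.82-fold lower (log2 -0.86, SE 0.14, adjusted p = 0.00298 by limma). TNFAIP3 was lower by 0.10 on the log2 scale (SE 0.025, adjusted p = 0.0211 by limma), a call lost in 8 of 20 alternatives, among them without MDA-MB-231 control replicate 2 (adjusted p = 0.0595) or 3 (0.0567) and without SKOV3 control replicate 1 (0.107) or 2 (0.139). CXCL2 (0.037, adjusted p = 0.872 by limma), CCL2 (0.063, adjusted p = 0.55), LIF (0.17, adjusted p = 0.0561) and IL1A (0.24, adjusted p = 0.104) did not pass. Of the CXCR2 ligands among the members, IL8 and CXCL1 thus differed between the lines in opposite directions, while CXCL2 was not called. Which of CXCL1 and CXCL2 each symbol measures is uncertain.

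As a description across the 11 arrays, which share cell line and treatment, IL6 followed IL1B most closely among the other members (Pearson r = 0.91) and CXCL1 most inversely (r = -0.84). Among 16144 other genes above background in at least 1 group, those with the pattern most like IL6 were LOC645466 (r = 0.96), UBE2G1 (0.96), C8orf55 (0.96), GPR172A (0.96) and ADSL (0.95).

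The genes around the members were described by 11 lists with 186 genes, all of them measured. In MDA-MB-231 cells 49 fell and 34 rose by limma, and in SKOV3 cells 35 fell and 16 rose; 31 fell and 11 rose in both. Called alike in both lines were 5.39% of all genes downward and 5.76% upward. The list medians were -0.023 and -0.0048. Each list count below is to be read beside the shares of all genes, 11.7% falls and 14.4% rises in MDA-MB-231 and 7.11% and 7.25% in SKOV3 cells. Among genes above background the shares were 25.1% falls and 30.9% rises in MDA-MB-231 and 14.8% and 15.1% in SKOV3 cells. Several list counts lie near these.

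Of the 5 NF-kB subunits 4 fell in MDA-MB-231 and 2 in SKOV3 cells. The falls of REL (-0.11, adjusted p = 0.0137 by limma) and NFKB2 (-0.084, adjusted p = 0.0304 by limma) in MDA-MB-231 cells were small. The remaining subunit was not called there, with a change of 0.12. NFKB1, the p105 and p50 subunit that pairs with RELA on cytokine promoters, averaged 8.26 ± 0.23 (SD) on miR-365a-3p arrays and 10.07 ± 0.14 (SD) on control arrays of MDA-MB-231 cells, a change of -1.82 (SE 0.19, adjusted p = 0.000239 by limma). In SKOV3 cells it changed by -1.30 (SE 0.22, adjusted p = 0.00454 by limma). RELA, the p65 subunit, fell by 0.33 in both. Fitted alone, SKOV3 cells gave NFKB1 an adjusted p of 0.0521 by limma, and RELA lost its SKOV3 call without either control array (adjusted p = 0.128 and 0.0726).

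Among 16 other NF-kB inhibitors and feedback genes 7 rose and 4 fell in MDA-MB-231, and SKOV3 had 4 rises and 3 falls; on deposited values the counts were 3 and 7, and 2 and 6. BCL3, an IkB protein that acts in the nucleus, fell by 0.48 in MDA-MB-231 and by 1.22 in SKOV3 cells. TNIP1, a partner of A20, fell by 1.11 and 0.42. COMMD1, which promotes removal of RELA from chromatin, rose by 0.76 and 0.78, TAX1BP1, another A20 partner, by 0.66 and 0.49, and TRAFD1 by 0.52 and 0.45. The SKOV3 rises were not called in all alternatives: COMMD1 lost its call without SKOV3 control replicate 1 (adjusted p = 0.051) or 2 (0.105), and TAX1BP1 in cyclic loess (0.0729) and without any one SKOV3 array. TRAFD1 lost its SKOV3 call on deposited values (0.21, adjusted p = 0.0746 by limma).

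**Figure D5:**
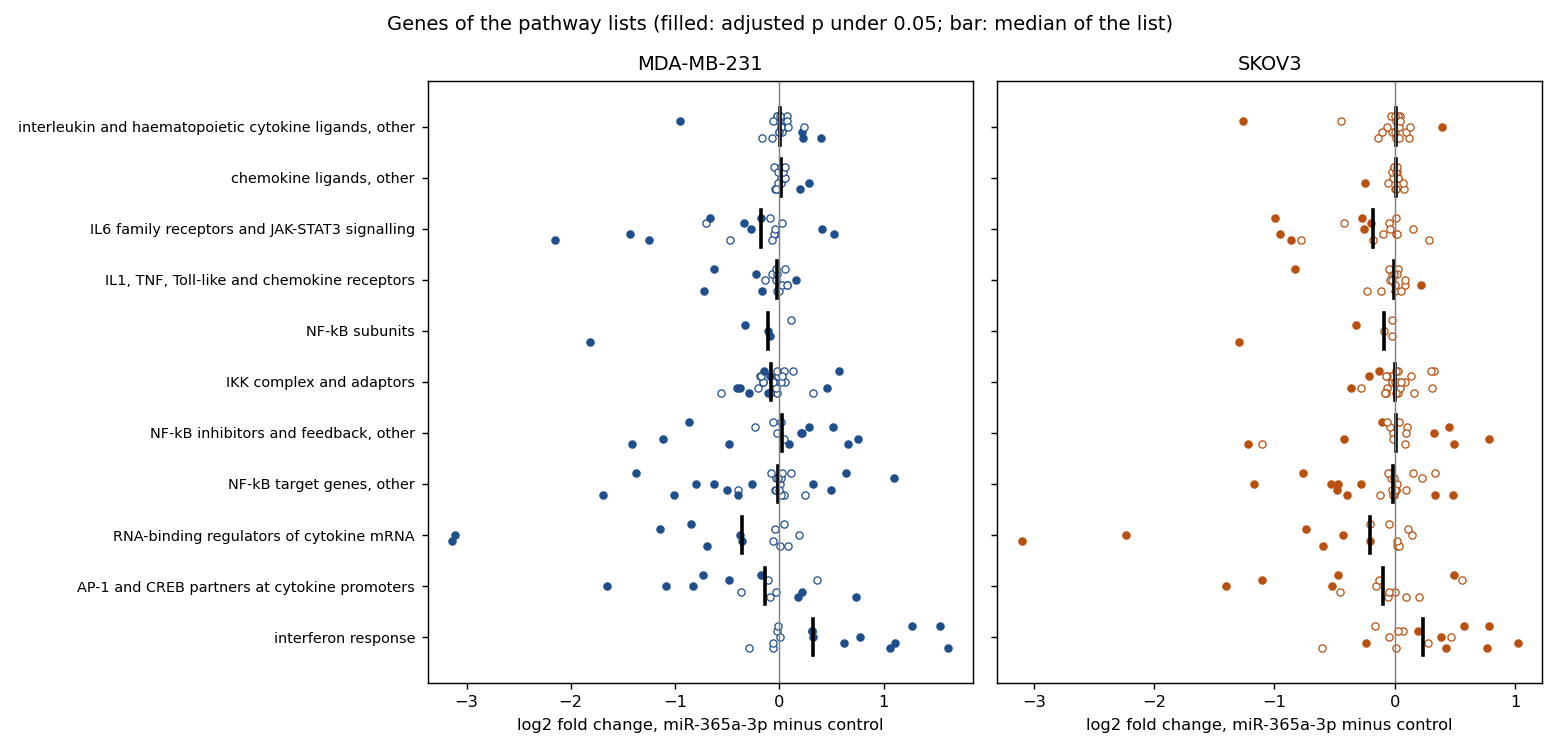
Log2 fold change with miR-365a-3p (x axis) of the genes of 11 pathway lists (y axis, jittered) in MDA-MB-231 and SKOV3 cells. Each point is a gene, filled where the adjusted p was under 0.05, and the bar is the list median, which lay at -0.36 and -0.20 for the RNA-binding regulators and at 0.32 and 0.24 for the interferon response.

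Of 13 RNA-binding proteins that control the decay or translation of cytokine mRNA, 7 fell in MDA-MB-231 and 6 in SKOV3 cells. ZFP36L1, which binds AU-rich elements and speeds decay, averaged 8.92 ± 0.11 (SD) against 12.06 ± 0.43 (SD) in MDA-MB-231 cells and changed by -3.13 (SE 0.22, adjusted p = 3.39e-05 by limma), and by -3.10 (SE 0.25, adjusted p = 0.000128) in SKOV3 cells. HNRNPD (AUF1) changed by -3.11 and -2.23 and KHSRP by -1.15 and -0.74. The SKOV3 call of HNRNPD was lost without either control array (adjusted p = 0.0934 and 0.0979 by limma).

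Of 17 genes of IL6-family receptors and JAK-STAT3 signalling 7 fell and 2 rose in MDA-MB-231, and SKOV3 had 6 falls, against 11.7% falls and 14.4% rises over all genes in the first line and 7.11% falls in the second. On deposited values the counts were 12 falls and 2 rises in MDA-MB-231 and 5 falls in SKOV3. STAT3, the factor through which IL6 and LIF act, fell by 0.67 and 1.00, and the kinase TYK2 by 1.44 and 0.95. CEBPB, a partner of NF-kB at the IL6 and IL8 promoters, fell by 1.25 and 0.86, but its SKOV3 call was lost on deposited values (adjusted p = 0.0633 by limma), and TYK2 and CEBPB lost theirs without either SKOV3 control array.

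Of 20 other cytokine ligands 3 rose and 1 fell in MDA-MB-231 and 1 of each in SKOV3, where 26.1% and 14.4% of all genes were called. On deposited values 2 rose and 5 fell in MDA-MB-231, and SKOV3 had 5 falls. Of 16 chemokines outside the members 2 rose in MDA-MB-231 and 1 fell in SKOV3, and on deposited values 1 and 3 fell. IL18, a cytokine of the IL1 family, fell by 0.95 and 1.26. Of 27 other NF-kB target genes 8 fell and 4 rose in MDA-MB-231, and SKOV3 had 7 falls and 2 rises, PLAU (urokinase) by 1.37 and 0.77, BIRC3 (the cIAP2 apoptosis inhibitor) by 0.62 and 1.17, and F3 (tissue factor) by 0.80 and 0.47. In SKOV3 cells PLAU lost its call without control replicate 1 (adjusted p = 0.0997 by limma) or 2 (0.0827), and IL18 without control replicate 2 (0.0824).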

How the data were processed

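Messenger RNA was measured as biotin-labelled cRNA on Illumina HumanHT-12 v4 arrays. The authors deposited values taken here as log2 from their range, 1 row for each of 31325 gene symbols, quantile normalized with lumi; the version, transformation (log2 or lumi's variance stabilization), background correction and the rule joining probes to genes are not given in the sources used here, so every fold holds only if the scale is log2. The deposited columns did not share a distribution, so they were quantile normalized across all 11 arrays (limma 3.58.1, R 4.3.3; plots with Matplotlib 3.10.9). Groups came from the sample labels, and 0 columns belonged to samples outside them. A model with 4 group means was fitted to all genes (lmFit, eBayes), with Benjamini-Hochberg adjustment over all of them and a threshold of 0.05. Intervals are at 95%. The procedure was tested on simulated data. The number of arrays limits the precision.

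Of the symbols, 17755 matched a current and 3305 an older RefSeq symbol (GRCh38.p14). The members and pathway lists were chosen with earlier results of these data known. All members are named; in each pathway list up to 3 falls and 3 rises with the largest mean change among genes called alike in both cell lines, genes called in 1 line with a called difference between lines, up to 3 per list for controls, and the 5 genes most like IL6 could be named; the result of 1 gene of the lists is not reported here. Alternatives were other scalings (deposited, median-centred, cyclic loess), each cell line alone, a replicate block, a filter on low means, an intensity trend, array weights, stricter thresholds, and each array left out. The series' text and labels differ on the time of harvest, 24 or 48 h.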

Additional observations from a re-analysis of the deposited data

Results flagged for a closer look

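None of the 10 members was picked out here. Among the genes of the pathway lists named here, 14 changed differently with miR-365a-3p in the 2 cell lines by limma's contrast of both changes. The adjustment was over all genes, and each value is the change in MDA-MB-231 minus that in SKOV3 cells. Part of them were named because this same contrast was called, so their number is no result about the lists. Of all 186 genes of the lists 17 were called by it, where 2.54% of all genes were. Groups of 2 or 3 arrays were too small for a search for outlying arrays.

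Of the AP-1 genes, FOSL1 differed by -1.50 (adjusted p = 0.00132; -1.65 in MDA-MB-231 and -0.15 in SKOV3 cells), JUN by -1.23 (adjusted p = 0.00126; it fell by 0.73 in the first and rose by 0.50 in the second) and ATF3 by 0.21 (adjusted p = 0.0207). The ATF3 call held in 8 of 22 alternatives, with 0.095 (adjusted p = 0.213) on deposited values. Of the NF-kB feedback genes, BCL3 differed by 0.73 (adjusted p = 0.00412), TNIP1 by -0.69 (adjusted p = 0.00553) and TRIB3 by -0.90 (adjusted p = 0.00137). Of NF-kB targets, LCN2 differed by 0.54 (adjusted p = 0.000606) and PTX3 by 0.31 (adjusted p = 0.0295). The PTX3 call held in 8 of 22 alternatives, and the sign turned on deposited (-0.055) and median-centred (-0.060) values. Of the interferon genes, IFIT2 differed by 1.20 (adjusted p = 0.00582) and OAS2 by 0.29 (adjusted p = 0.00958). The OAS2 difference was 0.067 (adjusted p = 0.478) on deposited values and 0.062 (0.552) with median centring, and its call was also lost with the replicate block (0.0696) and without SKOV3 control replicate 1 (0.0614) or 2 (0.0572). Of ligands, receptors and their effectors, CXCL16 differed by 0.24 (adjusted p = 0.00614), IL24 by 0.39 (adjusted p = 0.0131), IL1R2 by -0.20 (adjusted p = 0.0451) and CEBPD by 0.62 (adjusted p = 0.00658). The IL1R2 call held in 6 of 22 alternatives, with -0.026 (adjusted p = 0.794) on deposited values. CEBPD lost its call with the replicate block (adjusted p = 0.15 by limma) and the intensity trend (0.0709). CXCL16 lost its call with the replicate block (adjusted p = 0.144 by limma) and at a minimum change of 0.5. The differences of BCL3, TNIP1, JUN and IFIT2 were not followed through the alternatives. IL24 was 0.21 (adjusted p = 0.129) on deposited values and lost its call without SKOV3 control replicate 1 (0.0686) or 2 (0.0791).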

How the results depend on the processing

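Over the alternatives, member results kept direction and side of the threshold 782 times, passed it newly 54 times, lost it 18 times and changed sign 26 times, all sign changes of members at differences that were not called, while the called difference of PTX3, no member, changed sign 2 times; the causes were not tested. On deposited values the sign changed for IL1A in MDA-MB-231 (-0.16), IL6 (-0.038) and LIF (-0.11) in SKOV3, the difference between lines of IL1A (-0.17) and PTX3 (-0.055), and CXCL2 between controls (-0.0027). With median centring it changed for IL1A (-0.12) in MDA-MB-231, IL6 (-3.11e-06), CCL2 (0.0067) and LIF (-0.070) in SKOV3, and the differences of IL1A (-0.17) and PTX3 (-0.060). It changed for the IL1A difference with cyclic loess (-0.034), a replicate block (-0.013), array weights (-0.030), and, chosen after seeing the data, a block shared by both lines (-0.022) or no miR-365a-3p replicate 1 in both (-0.066), the last also for IL1A in MDA-MB-231 (-0.017), and for LIF in SKOV3 with array weights (-0.0060). Leaving out single arrays spanned -0.017 to 0.14 for IL1A in MDA-MB-231, -0.011 to 0.060 for LIF in SKOV3, -0.095 to 0.060 and -0.11 to 0.012 for the differences of IL1A and CXCL2, and -0.026 to 0.10 for CXCL2 between controls.

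Members called (2 fell and 2 rose in MDA-MB-231, 1 and 0 in SKOV3, 0 for the difference, 3 and 3 between controls) became, on deposited and on centred values alike, 5 fallen in MDA-MB-231, 2 fallen in SKOV3, and 1 lower and 1 higher for the difference. Cyclic loess gave 2 fallen in SKOV3 and 2 higher for the difference, and each line alone 2 fallen in SKOV3. The filter, the trend and array weights each gave 3 fallen and 1 risen in SKOV3, the trend also 1 higher for the difference and 5 higher between controls, array weights 2 and 5. An adjusted p under 0.01 gave 1 fallen in MDA-MB-231. A change of at least 0.5 gave 0 fallen and 1 risen in MDA-MB-231 and 0 fallen in SKOV3. Without replicate 1 in both, 1 fell in MDA-MB-231, 2 fell and 1 rose in SKOV3 and 1 was higher for the difference; the shared block gave 1 risen in SKOV3. Leaving out single arrays gave 1 to 3 fallen and 2 to 2 risen in MDA-MB-231, 1 to 2 and 0 to 1 in SKOV3, 0 to 0 lower and 0 to 1 higher for the difference, and 2 to 3 lower and 2 to 5 higher between controls.

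Pathway genes called (83 in MDA-MB-231, 51 in SKOV3, 17 for the difference, 51 between controls) were 40, 22, 10 and 25 with at least 0.5, 31 in SKOV3 alone, 33 and 4 (SKOV3, difference) with the replicate block, 27 and 11 at 0.01, and 73 to 88, 23 to 54, 10 to 24 and 36 to 60 without single arrays. All genes called (8174, 4498, 796 and 5043) were 4239, 2504, 449 and 2735 with at least 0.5, 2825 in SKOV3 alone, 7213 and 1887 (SKOV3, difference) with array weights, 2358, 327 and 3261 (SKOV3, difference, controls) at 0.01, 123 for the difference with the replicate block, 1274 without replicate 1 in both, and 6569 to 8678, 1775 to 5002, 301 to 1225 and 3023 to 5680 without single arrays. With 1 SKOV3 control left, that array is assumed to vary like the others. The replicate block and cyclic loess within lines give no value between controls, and each line alone none there or for the difference. Whether replicate numbers pair treated with control arrays was not settled. Deviations of same-numbered arrays correlated at -0.12, 0.037 and 0.20 in MDA-MB-231 and 0.043 and -0.062 in SKOV3 cells. The 2 SKOV3 controls deviate from their mean in mirror image, so no correlation with them can show pairing. Between the cell lines, same-numbered miR-365a-3p arrays correlated at 0.66, 0.28 and 0.33, but MDA-MB-231 replicate 3 correlated more with SKOV3 replicate 2 (0.59), and same-numbered controls at 0.11 and -0.11.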

Other observations

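Of 16 interferon response genes, antiviral genes downstream of double-stranded RNA sensors and interferon receptors, 10 rose by limma in MDA-MB-231. SKOV3 had 7 rises and 1 fall, and 7 rose in both. For this and the next lists, among genes above background 30.9% rose and 25.1% fell in MDA-MB-231 and 15.1% and 14.8% in SKOV3 cells. IFIT1, which binds viral RNA, rose by 1.54 (adjusted p = 0.000453) and 0.79 (adjusted p = 0.0367), and IFI44 by 1.11 (adjusted p = 0.0037) and 1.02 (adjusted p = 0.018). On deposited values 6 rose and 1 fell in MDA-MB-231, and SKOV3 had 2 of each, and there IFIT1 was 0.54 higher (adjusted p = 0.0894). The SKOV3 call of IFIT1 held in 11 of 23 alternatives, and that of IFI44 was lost without control replicate 1 (adjusted p = 0.086) or 2 (0.137) and with the line fitted alone (0.113). Of 14 AP-1 and CREB partners at cytokine promoters 6 fell and 3 rose in MDA-MB-231 and 4 fell and 1 rose in SKOV3 cells, CREB1 by 1.08 and 1.41 and its coactivator CREBBP by 0.49 and 1.10. The MDA-MB-231 call of CREBBP was lost with cyclic loess (adjusted p = 0.0759), with the line fitted alone (0.0529) and with the replicate block (0.0554). Of 26 genes of the IKK complex and its adaptors 8 fell and 2 rose in MDA-MB-231 and 3 fell in SKOV3 cells, among them RBCK1, a subunit of the linear ubiquitin ligase, by 0.38 and 0.36. On deposited values 15 fell in MDA-MB-231 and 10 in SKOV3, and with median centring 14 and 8. Of 16 IL1, TNF, Toll-like and chemokine receptors 4 fell and 1 rose in MDA-MB-231 and SKOV3 had 1 of each. TNFRSF1A, the main TNF receptor, fell by 0.63 and 0.83.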
